A study of Mus musculus with 45 samples.

Results

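Leptin and other adipokines are proteins that fat tissue or liver secretes into the blood. The 6 genes followed were Lep, Adipoq, Retn, Cfd, Agt and Serpina12, taken by their symbols, with every probe set whose annotation names that gene alone. Of these 6 genes, 5 had such a probe set, and Cfd, the gene of the complement protease adipsin, was not analysed here. Lep had 2 probe sets (98443_at and 98444_g_at) and the other genes 1 each (Adipoq 99104_at, Retn 102366_at, Agt 101887_at, Serpina12 160951_at), which makes 6 of the 10833 probe sets with 1 gene symbol. The values came from Affymetrix arrays of epididymal fat, liver and skeletal muscle of 2 inbred mouse strains, C57Bl/6 (B6) and 129S6/SvEvTac (129S6), each fed either of 2 diets, low-fat and high-fat, and sampled at 6 months of age. Of the 45 arrays, 14 were of fat (4 for each diet in B6 and 3 for each in 129S6), 16 of liver (4 a group) and 15 of muscle (3 for low-fat B6 and 4 for every other group). Each array carried RNA pooled from several mice, so a test below measures the spread between pools. The labels name no genetic alteration and no drug in any group, nor which diet the stated composition belongs to.

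Leptin is the hormone by which adipocytes report the size of fat stores to the brain, and its circulating level generally rises with fat mass. Adiponectin, the product of Adipoq, is an abundant adipocyte hormone that increases insulin sensitivity in mice, while resistin, the product of Retn, comes from adipocytes in mice and lowers insulin sensitivity there. Agt encodes angiotensinogen, the precursor of the blood pressure hormone angiotensin II, made mainly by liver and also by fat. Serpina12 encodes vaspin, a serine protease inhibitor known from the visceral fat of obese rats.

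Values are log2 intensities. Diet differences are high-fat less low-fat and strain differences B6 less 129S6, given ± SE from limma, with a p adjusted over all 10833 probe sets and a threshold of 0.05. Of the fat arrays, 3 stood apart in RNA quality: on the high-fat diet, replicate 7 of B6 and replicates 12 and 13 of 129S6 had a Gapdh 3' signal above the 5' signal by 6.03, 5.81 and 5.93 log2 units, and the other 11 fat arrays were at 2.36 or below. Without these arrays the 129S6 high-fat group has 1 array left, replicate 14. A test of that group then takes its spread from the other groups and assumes that the lone array varies like theirs, so it gives no replicate check of the result. Runs of array numbers split the fat arrays into one run with 129S6 low-fat replicate 9 beside every B6 array, and another with the remaining 129S6 arrays, so strain and run largely coincide. In liver, 129S6 low-fat replicate 11 had a Gapdh 3' excess of 3.26 and the other 129S6 low-fat arrays 0.13 to 0.41. The excess was 0.82 to 1.69 in the B6 low-fat liver arrays and 0.22 to 0.35 in the B6 high-fat ones. In muscle the B6 high-fat arrays and 129S6 low-fat replicate 9 had a narrow spread of values (SD 1.57 to 1.70 log2 units). The other muscle arrays had an SD of 1.80 to 1.88. Liver arrays showed 7 measured hepatocyte markers at a mean level of 11.60 to 12.19, muscle arrays 8 skeletal muscle markers at 10.72 to 12.51, and fat arrays 9 adipocyte markers at 8.70 to 9.76. Markers of the epididymis, which lies beside this fat pad, varied from array to array in fat, from 5.21 to 10.22 as a mean of 4 genes. In fat, fewer adipocytes in a sample and less RNA of a gene in each adipocyte cannot be told apart.

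The promoters of 4 of these genes are shown because Lep, Retn and Agt are those that changed with diet in 129S6 fat and Serpina12 is the one that changed in liver. Each is 300 bases of RefSeq sequence on GRCm38.p6, on the strand of the gene, from 250 bases before the annotated start site to 50 bases from it onward. Capitals mark matches on either strand to the TATA box letters TATAAA, the letters CCAAT of the box of that name, the palindromic C/EBP site TTGCGCAA or the GC box letters GGGCGG.
Lep, chr6:29059971-29060270 (+): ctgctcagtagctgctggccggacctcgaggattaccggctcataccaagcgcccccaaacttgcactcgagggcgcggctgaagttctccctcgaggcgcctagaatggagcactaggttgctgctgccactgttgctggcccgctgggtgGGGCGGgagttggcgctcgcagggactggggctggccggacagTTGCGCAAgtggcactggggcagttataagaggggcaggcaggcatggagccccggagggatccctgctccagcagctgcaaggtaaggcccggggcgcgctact
Retn, chr8:3655520-3655819 (+): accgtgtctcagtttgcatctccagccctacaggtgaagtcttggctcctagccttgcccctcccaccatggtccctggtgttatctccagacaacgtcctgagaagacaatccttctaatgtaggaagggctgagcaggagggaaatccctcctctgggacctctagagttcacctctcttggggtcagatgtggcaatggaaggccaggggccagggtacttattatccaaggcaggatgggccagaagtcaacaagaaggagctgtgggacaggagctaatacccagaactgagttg
Agt, chr8:124569657-124569956 (-): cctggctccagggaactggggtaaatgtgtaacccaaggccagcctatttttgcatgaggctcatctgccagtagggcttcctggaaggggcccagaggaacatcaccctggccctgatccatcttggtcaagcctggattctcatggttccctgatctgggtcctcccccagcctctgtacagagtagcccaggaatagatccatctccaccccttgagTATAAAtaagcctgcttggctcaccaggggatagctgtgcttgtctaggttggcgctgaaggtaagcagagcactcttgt
Serpina12, chr12:104044394-104044693 (-): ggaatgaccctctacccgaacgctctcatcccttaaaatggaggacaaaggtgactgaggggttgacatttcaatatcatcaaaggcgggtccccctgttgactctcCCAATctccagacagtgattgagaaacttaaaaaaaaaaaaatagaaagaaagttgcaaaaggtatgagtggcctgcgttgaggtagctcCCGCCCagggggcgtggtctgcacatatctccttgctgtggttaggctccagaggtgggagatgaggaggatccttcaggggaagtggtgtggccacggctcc
The Lep window held the C/EBP palindrome, its first base 55 bases before the start site, a match present in 60 of 32851 mouse promoter windows of the same length (0.183%). It also held a GC box at -98, as did 35.7% of windows. The Agt window held a TATA box at -30, which 13.6% of windows have. The Serpina12 window held a CCAAT box at -143 (37.4% of windows) and a GC box on the opposite strand at -53. The Retn window held none of these letters. The Adipoq window, chr16:23146286-23146585 (+), which is not printed, held 3 CCAAT matches, at -34 and -27 on the opposite strand and at -7. The looser C/EBP core TTNNGNAA, found in 40.7% of windows, overlapped the palindrome in Lep and matched elsewhere in the Adipoq and Serpina12 windows. The matches are given as a description of the sequences.

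Leptin mRNA rose with the high-fat diet in 129S6 fat and was higher in B6 than in 129S6 fat on low fat. Lep lies at chr6:29060221-29073876 of GRCm38.p6. Its probe set 98443_at read 10.99, 11.13 and 11.54 in the 3 arrays of 129S6 fat on low fat (11.22 ± 0.28, SD). On the high-fat diet the 129S6 arrays read 13.36, 12.93 and 13.19 (13.16 ± 0.22). Every high-fat array was above every low-fat array of that strain, and the diet difference was 1.94 ± 0.20, or 3.83-fold (adjusted p = 0.000997). In B6 fat the low-fat arrays read 12.44, 12.43, 12.27 and 12.70 (12.46 ± 0.18), and the high-fat arrays 12.88, 12.86, 13.55 and 13.19 (13.12 ± 0.32). These groups did not overlap either, but the difference of 0.66 ± 0.18 did not pass the test (adjusted p = 0.163, 95% interval 0.28 to 1.04). On the low-fat diet Lep was 2.36-fold higher in B6 than in 129S6 (1.24 ± 0.19, adjusted p = 0.00738), and every B6 array was above every 129S6 array. On the high-fat diet the strains overlapped and the difference was -0.04 ± 0.19 (95% interval -0.45 to 0.37, adjusted p = 0.973). The B6 diet difference less the 129S6 one was -1.27 ± 0.27, with an unadjusted p = 0.00037 and an adjusted p = 0.919 in limma. The strain difference on low fat and the diet difference in 129S6 share the same 3 arrays of 129S6 mice on low fat.

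**Figure D1:**
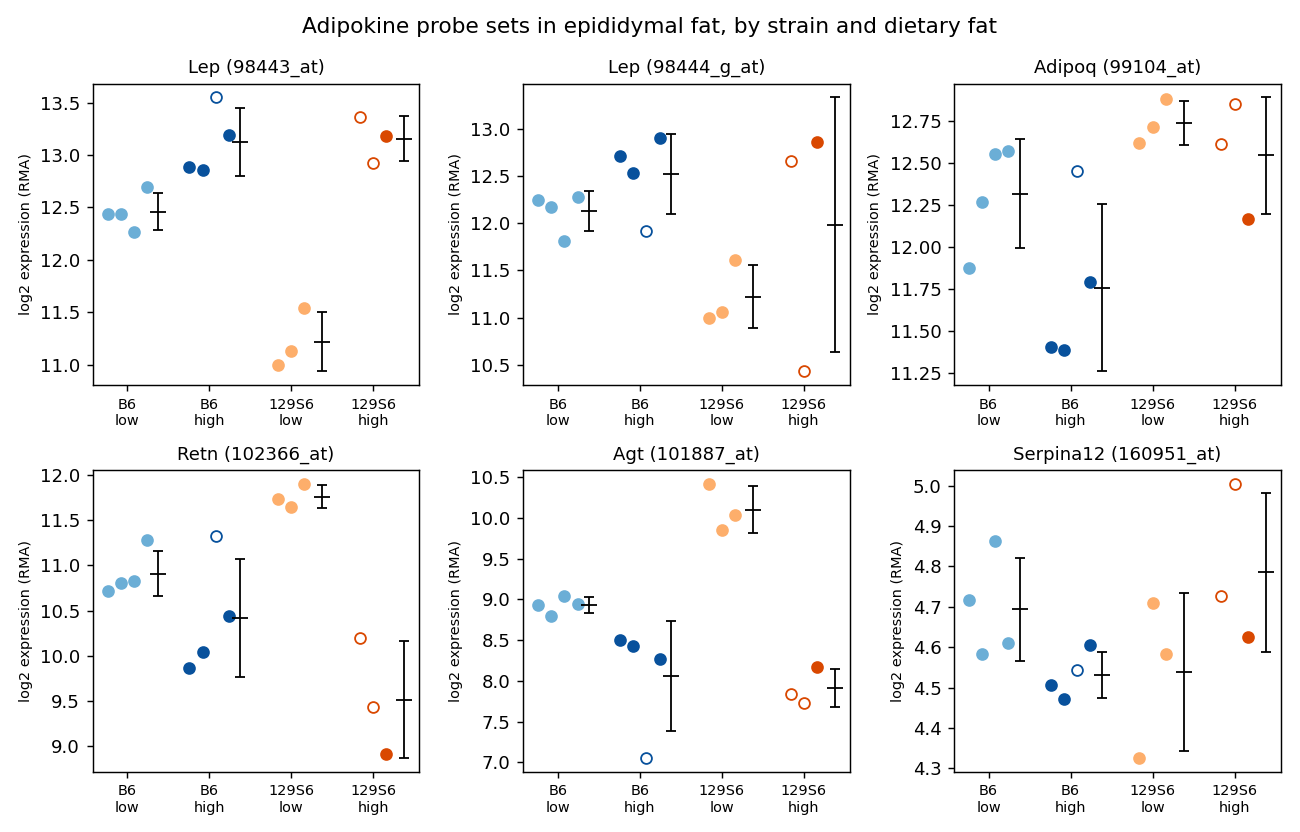
Level of each of the 6 adipokine probe sets in epididymal fat (vertical axis, log2 intensity) in the 4 groups of strain and diet. Each circle is 1 array (open where the Gapdh 3' signal exceeded the 5' signal by more than 3) and black bars are the mean ± SD, with Lep 98443_at lowest (10.99 to 11.54) and Agt highest (9.86 to 10.42) in 129S6 mice on low fat.

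The diet rise of Lep in 129S6 fat was 1.97 without the 3 arrays with a large Gapdh 3' excess (adjusted p = 0.00166, with 1 array left on high fat), and 1.82 with the array run as a block (adjusted p = 0.0122) but with an adjusted p = 0.0938 within the run that holds only 129S6 arrays. With the run as a block the strain difference on low fat was 1.46. That fit rests on 129S6 low-fat replicate 9 alone, the only 129S6 array in the run of the B6 arrays. When replicate 9 was left out, the strain difference did not pass (1.13, adjusted p = 0.0609).

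The second Lep probe set, 98444_g_at, did not pass in any fat comparison. It read 12.25, 12.17, 11.81 and 12.27 in B6 fat on low fat and 12.71, 12.53, 11.92 and 12.91 on high fat. In 129S6 fat it read 10.99, 11.06 and 11.61 on low fat and 12.66, 10.43 and 12.86 on high fat. The low value of 10.43 belongs to replicate 13, one of the arrays with a large Gapdh 3' excess, which the other Lep probe set read at 12.93. The diet difference in 129S6 was 0.76 ± 0.49 over all arrays (adjusted p = 0.494), 1.54 without replicate 13 (adjusted p = 0.0369) and 1.64 without the 3 arrays with a large Gapdh 3' excess (adjusted p = 0.00734, with 1 array left on high fat). Across the 14 fat arrays the correlation of the 2 Lep probe sets was r = 0.60, a description over arrays that share strain, diet and run.

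Angiotensinogen mRNA fell in 129S6 fat on high fat, and its group means ran in the opposite order to those of Lep 98443_at. They did not run opposite to those of Lep 98444_g_at, whose highest fat mean was that of B6 on high fat. Over the 14 fat arrays, Agt had r = -0.95 with Lep 98443_at and r = -0.36 with Lep 98444_g_at. Agt lies at chr8:124556587-124569706 on the minus strand. It read 10.42, 9.86 and 10.03 in 129S6 fat on low fat (10.10 ± 0.29, SD) and 7.83, 7.73 and 8.17 on high fat (7.91 ± 0.23). The groups did not overlap, and the difference was -2.19 ± 0.30, or 4.56-fold lower (adjusted p = 0.00676). In B6 fat Agt read 8.93, 8.80, 9.04 and 8.94 on low fat and 8.50, 8.42, 7.05 and 8.26 on high fat. Every high-fat array was below every low-fat array, by a mean of 0.87 ± 0.26 that did not pass the test (adjusted p = 0.229), and the lowest of them, 7.05, was replicate 7 with its large Gapdh 3' excess. On the low-fat diet each B6 array lay below each 129S6 array, with a difference of -1.17 ± 0.29 (adjusted p = 0.0956). The strains overlapped on high fat (0.15 ± 0.29, adjusted p = 0.915). The B6 diet difference less the 129S6 one was 1.32 ± 0.40 (unadjusted p = 0.00606, adjusted p = 0.997).

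Agt differed by -1.93 for diet in 129S6 fat without the arrays with a large Gapdh 3' excess (1 array left on high fat). With the run as a block the difference was -2.03 and missed the threshold (adjusted p = 0.0601). For this comparison that is the same fit as leaving out 129S6 low-fat replicate 9, the only 129S6 array in the run of the B6 arrays. The strain difference on low fat passed without B6 high-fat replicate 7 (adjusted p = 0.000692), as did the difference between the strains' diet responses (1.65, adjusted p = 0.016), which without all 3 arrays did not (1.40, adjusted p = 0.0642, again with 1 array in the 129S6 high-fat group).

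**Figure D2:**
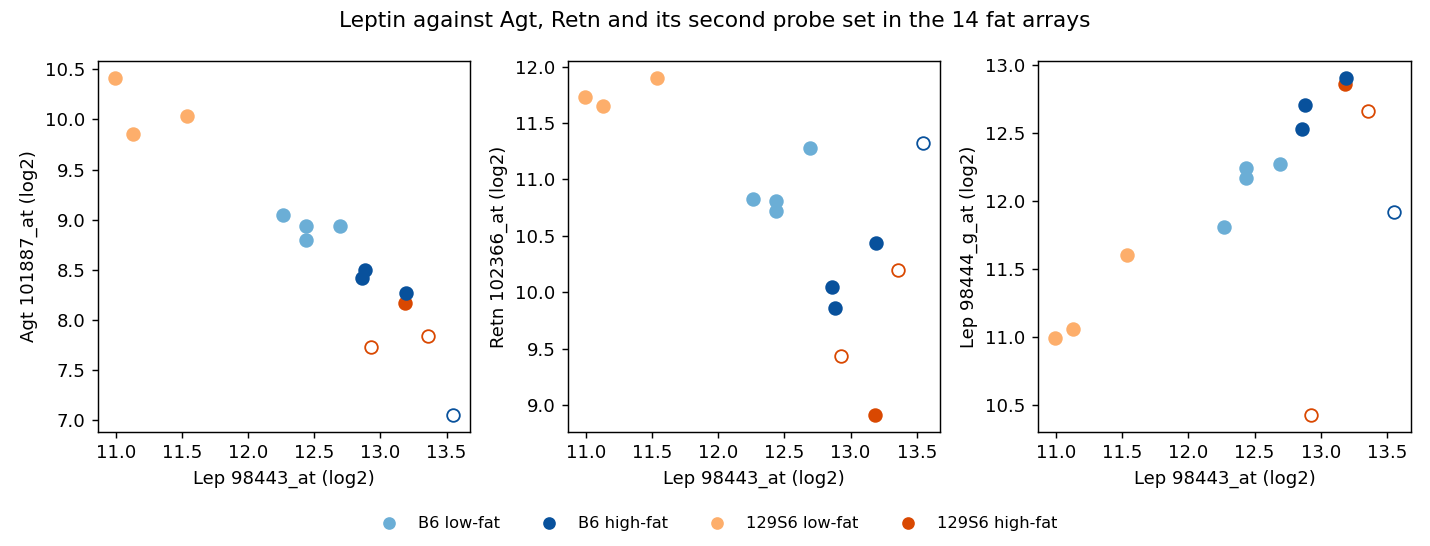
Agt, Retn and the second Lep probe set in fat (vertical axes, log2 intensity) against Lep 98443_at (horizontal axes, log2 intensity), 1 circle per fat array coloured by strain and diet, open where the Gapdh 3' signal exceeded the 5' signal by more than 3. Agt declined along the Lep axis (r = -0.95 over 14 arrays) from 129S6 low-fat arrays at one end to high-fat arrays of both strains at the other.

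Resistin mRNA also fell in 129S6 fat on high fat. Retn lies at chr8:3655770-3659818. It read 11.73, 11.65 and 11.90 in 129S6 fat on low fat (11.76 ± 0.13, SD), the highest group of the 4, and 10.20, 9.43 and 8.91 on high fat (9.52 ± 0.65), the lowest. The groups were fully apart and the difference was -2.24 ± 0.35, or 4.74-fold lower (adjusted p = 0.0128). In B6 fat it read 10.72, 10.81, 10.83 and 11.28 on low fat and 9.86, 10.05, 11.32 and 10.44 on high fat. The B6 groups overlapped, since replicate 7 of the high-fat group was the highest of all B6 arrays, and the difference was -0.49 ± 0.31 (adjusted p = 0.439). B6 arrays were below 129S6 arrays on low fat (-0.85 ± 0.33, adjusted p = 0.454) and mostly above them on high fat (0.90 ± 0.33, adjusted p = 0.423), and neither difference passed the test. The B6 diet difference less the 129S6 one was 1.75 ± 0.47 (unadjusted p = 0.00242, adjusted p = 0.997).

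Without the 3 arrays with a large Gapdh 3' excess, the Retn differences for diet in B6 (-0.79, adjusted p = 0.0301) and for strain on low fat (-0.85, adjusted p = 0.00712) passed. The other 3 comparisons then rest on a single array of 129S6 on high fat, replicate 14, which had the lowest Retn of its group. They gave -2.85 for diet in 129S6 (adjusted p = 0.000358), 1.20 for strain on high fat (adjusted p = 0.033) and 2.05 between the diet responses (adjusted p = 0.0277), with the spread taken from the other groups. The call in 129S6 over all arrays was lost when any of the 129S6 low-fat replicates 9, 10 and 11 was left out (adjusted p = 0.086, 0.0637 and 0.0626). It was also lost with the run as a block (-2.26, adjusted p = 0.086). For this comparison that is the same fit as leaving out replicate 9.

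Adiponectin was among the brightest probe sets of fat in all 4 groups and passed the test in no fat comparison. Adipoq lies at chr16:23146536-23157968. It read 11.88, 12.27, 12.55 and 12.57 in B6 fat on low fat and 11.40, 11.38, 12.45 and 11.79 on high fat (-0.56 ± 0.24, adjusted p = 0.327). In 129S6 fat it read 12.62, 12.71 and 12.88 on low fat and 12.61, 12.85 and 12.17 on high fat (-0.19 ± 0.27, 95% interval -0.79 to 0.40, adjusted p = 0.774). The diet groups overlapped in both strains. B6 arrays lay below 129S6 arrays on low fat without overlap (-0.42 ± 0.26, adjusted p = 0.762) and on average on high fat (-0.79 ± 0.26, adjusted p = 0.335). Without B6 high-fat replicate 7 the latter was -1.02 and passed (adjusted p = 0.011), and without all 3 arrays with a large Gapdh 3' excess it was -0.64 and did not (adjusted p = 0.318, with 1 array of 129S6), while the diet difference in B6 then passed (-0.79, adjusted p = 0.0376).

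Serpina12 was dim in fat, between 4.33 and 5.00 in all 14 arrays. No fat comparison passed for it, and the largest of its fat values was that of the B6 diet difference less the 129S6 one (-0.41 ± 0.18, adjusted p = 0.997).

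Of the 6 adipokine probe sets, 3 passed for diet in 129S6 fat (Lep 98443_at, Retn and Agt), where 0.572% of all probe sets passed. Of the same 6, 1 passed for strain on low fat (Lep 98443_at, against 0.849% of all). None passed for diet in B6 fat, where 0.185% of all did, or for strain on high fat, where 0.434% did. For the difference between the strains' diet responses in fat, 0 of 10833 probe sets passed in limma (0%), and 315 had an unadjusted p under 0.05.

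**Figure D3:**
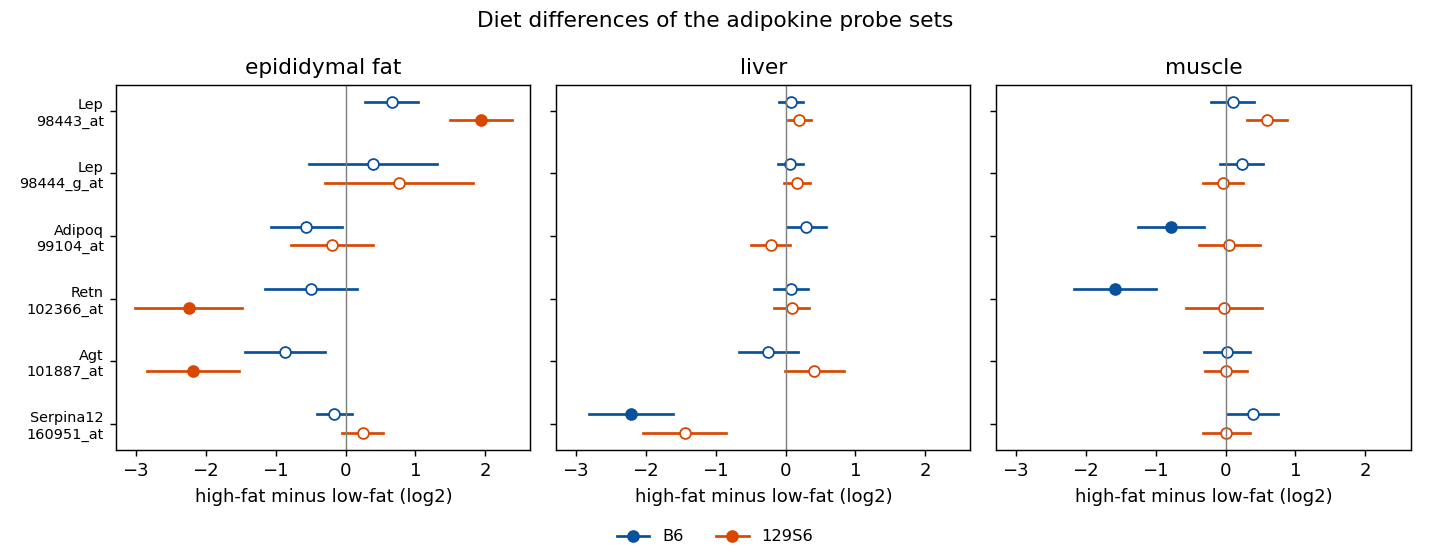
Diet difference (high-fat minus low-fat, log2 units, horizontal axis) of each adipokine probe set in each strain and tissue, with lines for the 95% interval; filled points passed the adjusted p threshold and open ones did not. In fat the filled points are Lep 98443_at, Retn and Agt in 129S6, in liver Serpina12 in B6, and in muscle Retn and Adipoq in B6.

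Markers of other cell types moved with diet and strain in the same fat arrays. The mean level of 11 measured macrophage markers of a list of 13 ranged from 6.84 to 7.10 in 129S6 fat on low fat, 7.72 to 8.14 in 129S6 on high fat, 7.46 to 8.11 in B6 on low fat and 8.05 to 8.56 in B6 on high fat. Of these 11 markers, Mpeg1, a pore-forming protein of macrophages, rose with diet in 129S6 (2.01 ± 0.30, adjusted p = 0.0105). Mpeg1 (1.45 ± 0.28, adjusted p = 0.0278) and the lysozyme gene Lyz2 (1.56 ± 0.27, adjusted p = 0.0151) were higher in B6 than in 129S6 on low fat. The other probe set of each gene was dim in fat (mean level 2.74 for Mpeg1 and 4.35 for Lyz2). These did not pass for strain on low fat (0.13, adjusted p = 0.887, and 0.33, adjusted p = 0.864), nor did that of Mpeg1 for diet in 129S6 (adjusted p = 0.993). The median diet difference of the 11 was 0.60 in B6 and 0.78 in 129S6, beside -0.03 and 0.01 over all genes. The mean level of 9 adipocyte markers of a list of 13 ranged from 8.88 to 9.35 and 8.70 to 9.19 in B6 on low and high fat, and from 9.61 to 9.76 and 8.80 to 9.65 in 129S6. None of the 9 passed in a fat comparison in limma, and their median difference between the strains on low fat was -0.70. Lum, the gene of the matrix proteoglycan lumican in fibroblasts, rose with diet in both strains (1.41 ± 0.25, adjusted p = 0.0424 in B6 and 1.44 ± 0.29, adjusted p = 0.0467 in 129S6). Upk3b, a gene of mesothelial cells, fell with diet in 129S6 (-1.02 ± 0.15, adjusted p = 0.0105), and all 3 measured mesothelial markers had negative diet differences in both strains. The endothelial gene Vwf was lower in B6 on low fat by 1 of its probe sets (-0.93 ± 0.16, adjusted p = 0.0151) and not called by the other (-0.27, adjusted p = 0.837). Of 4 brown adipocyte markers, Cidea was lower in B6 on low fat (-1.88 ± 0.30, adjusted p = 0.0106) and Ucp1, the uncoupling protein of brown fat, on high fat (-2.56 ± 0.35, adjusted p = 0.00368). The mean level of 7 measured hepatocyte markers of a list of 8 ranged in fat from 6.71 to 7.90 in 129S6 on low fat and from 6.24 to 7.35 on high fat. In B6 fat it ranged from 5.88 to 6.47 on low fat and from 5.51 to 6.97 on high fat. The part of any of these cell types in the differences of Lep, Retn and Agt was not tested.

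**Figure D4:**
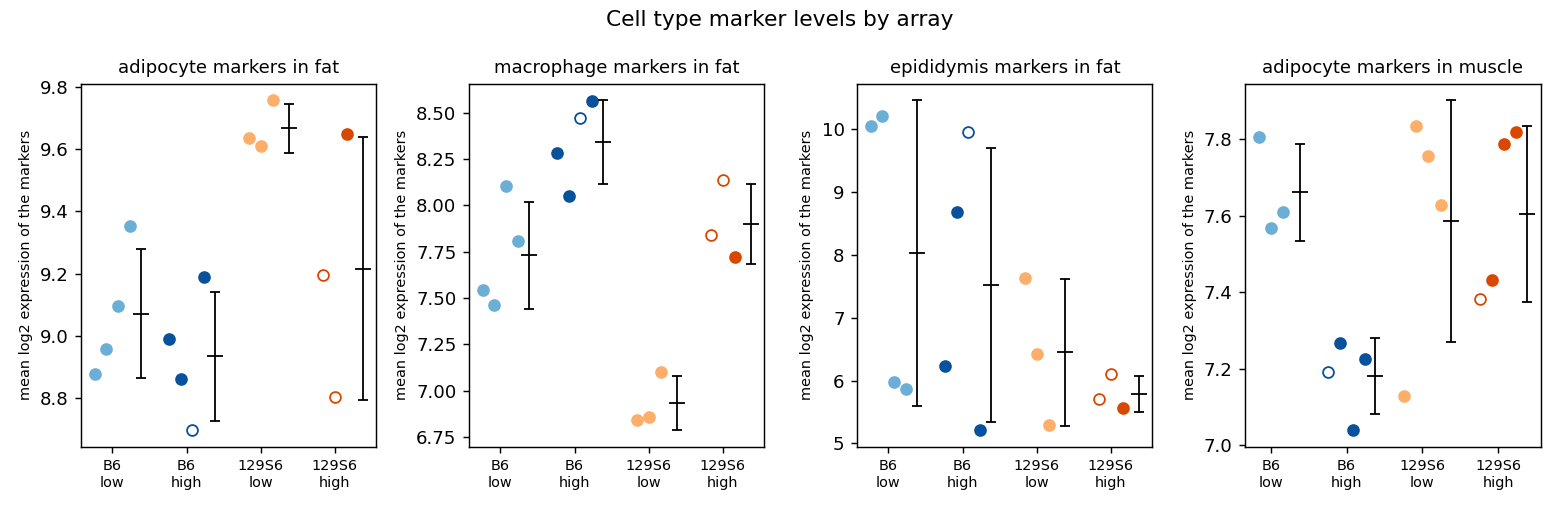
Mean level of the measured marker genes of adipocytes, macrophages and epididymis in each fat array, and of adipocytes in each muscle array (vertical axes, log2 intensity), by strain and diet. Circles are arrays, open where the Gapdh 3' signal exceeded the 5' signal by more than 3, and black bars the mean ± SD. Macrophage markers lay lowest in 129S6 mice on low fat (6.84 to 7.10), and epididymis markers varied between arrays of 1 group (5.87 to 10.22 in B6 on low fat), and adipocyte markers in muscle ran from 7.04 to 7.83.

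In liver, Serpina12 differed by strain on both diets and fell with the high-fat diet in B6. Serpina12 lies at chr12:104028769-104044443 on the minus strand. It read 8.15, 9.03, 9.55 and 9.79 in B6 liver on low fat (9.13 ± 0.73, SD) and 7.63, 6.97, 6.37 and 6.70 on high fat (6.92 ± 0.53). All low-fat arrays were above all high-fat arrays, with a difference of -2.21 ± 0.28, or 4.63-fold lower (adjusted p = 0.000121). In 129S6 liver it read 6.62, 6.66, 6.65 and 6.34 on low fat and 5.21, 5.22, 5.09 and 4.99 on high fat. These groups were also apart, by -1.44 ± 0.28, which missed the threshold (adjusted p = 0.0595). B6 liver was 5.91-fold above 129S6 on low fat (2.56 ± 0.28, adjusted p = 1.78e-05). On high fat the difference was 1.79 ± 0.28 (adjusted p = 0.000908), and the strains overlapped on neither diet. No fold is given for high fat, since the 129S6 arrays lay near the levels of Serpina12 in fat and muscle, with 28.3% of all probe sets dimmer, and the deposited values carry no detection call. The B6 diet difference less the 129S6 one was -0.77 ± 0.40 (adjusted p = 0.297).

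The 129S6 diet difference of Serpina12 passed within a run of arrays that holds 129S6 arrays of both diets (-1.52, adjusted p = 0.000209), and also when B6 low-fat replicate 1 or 4 or B6 high-fat replicate 13 was left out of the shared fit (adjusted p = 0.00977, 0.0369 and 0.0344). The B6 low-fat liver arrays form a run of their own, so for diet in B6 and for strain on low fat the run and the group cannot be told apart. These arrays also had a larger Gapdh 3' excess (0.82 to 1.69) than the B6 high-fat arrays (0.22 to 0.35). It was larger too than in the 129S6 low-fat arrays other than replicate 11 (0.13 to 0.41). RNA quality therefore coincides with diet in B6 liver and nearly so with strain on low fat. For strain on high fat the run as a block gave 1.94 (adjusted p = 0.0558).

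Agt was bright in liver and passed in no liver comparison. It read 10.86, 10.91, 10.85 and 10.84 in B6 on low fat, 10.69, 10.64, 10.59 and 10.56 in B6 on high fat, and 10.91, 10.95, 10.77 and 10.82 in 129S6 on high fat. In 129S6 on low fat it read 10.75, 10.67, 9.51 and 10.85, where the low array is replicate 11 with its Gapdh 3' excess. B6 high-fat arrays lay below B6 low-fat arrays without overlap (-0.24 ± 0.20, adjusted p = 0.425), a difference that passed when replicate 11 of 129S6 was left out of the shared fit (adjusted p = 0.0178). Without it the strain difference on high fat (-0.24, adjusted p = 0.0431) and the difference between the diet responses (-0.35, against -0.66 ± 0.28 over all arrays, adjusted p = 0.0425) passed as well.

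Of the other adipokines in liver, Adipoq was dim, between 4.75 and 5.61. On low fat 26.0% of all probe sets were dimmer in B6 and 32.8% in 129S6, and the deposited values carry no detection call. Adipoq was slightly lower in B6 than in 129S6 on low fat (-0.47 ± 0.13, adjusted p = 0.0287). That call was lost when B6 low-fat replicate 2, 3 or 4 or 129S6 low-fat replicate 6 or 12 was left out (adjusted p from 0.0524 to 0.0889). Retn ranged from 5.92 to 6.63 and Lep from 8.21 to 8.66 (98443_at) and from 8.83 to 9.44 (98444_g_at), and none of these passed in a liver comparison. In counts, 1 of the 6 adipokine probe sets passed for diet in B6 liver (16.2% of all probe sets passed), 0 for diet in 129S6 (0.111%), 2 for strain on low fat (12%), 1 for strain on high fat (4.24%) and 0 for the difference between the diet responses (4.56%).

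In muscle, resistin and adiponectin fell with the high-fat diet in B6 mice. Retn read 8.60, 8.10 and 7.85 in B6 muscle on low fat and 6.94, 6.83, 6.19 and 6.46 on high fat. The B6 groups did not overlap, with a difference of -1.58 ± 0.27, or 2.99-fold lower (adjusted p = 0.0059). The B6 high-fat arrays overlapped the range of Retn in liver (5.92 to 6.63), with 58.4% of all probe sets dimmer than their mean. In 129S6 muscle Retn read 6.27, 7.43, 7.13 and 7.30 on low fat and 7.11, 7.20, 7.10 and 6.64 on high fat, overlapping (-0.02 ± 0.25, adjusted p = 1). The difference between these responses was -1.56 ± 0.37 and passed (adjusted p = 0.0431). Adipoq read 10.34, 9.85 and 9.74 in B6 muscle on low fat and 9.53, 9.30, 8.62 and 9.35 on high fat, without overlap (-0.78 ± 0.22, adjusted p = 0.0246). In 129S6 muscle Adipoq ranged from 9.49 to 10.00 on low fat and from 9.34 to 9.93 on high fat (0.06 ± 0.20, adjusted p = 0.991).

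The B6 high-fat muscle arrays are those with a narrow spread of values, and the median difference of all probe sets for diet in B6 muscle was 0.18. With the SD of each array as a covariate, an alternative chosen after seeing the data, none of these calls held: Retn gave -0.90 for diet in B6 (adjusted p = 0.165) and -0.73 for the difference between the responses (adjusted p = 0.841), and Adipoq gave -0.46 (adjusted p = 0.495). Of the muscle arrays, 2 had a Gapdh 3' excess above 3 log2 units. Without them the diet differences in B6 were -1.69 for Retn (adjusted p = 0.0104) and -0.89 for Adipoq (adjusted p = 0.0228). The difference between the Retn responses then missed the threshold (-1.64, adjusted p = 0.069). Leaving these arrays out does not even out RNA quality between the B6 diets. The B6 high-fat arrays left had an excess of 1.19 to 2.92, all above the B6 low-fat arrays (0.35 to 0.81). After quantile normalization within muscle Retn gave -1.52 (adjusted p = 0.00486) and Adipoq -0.30 (adjusted p = 0.333). The call for the difference between the Retn responses was lost in 10 of the 15 fits that leave out 1 array (adjusted p from 0.0138 to 0.136), and the Adipoq call without B6 low-fat replicate 13 or 14 or B6 high-fat replicate 7 (adjusted p = 0.128, 0.056 and 0.0585).

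Markers of adipocytes and of muscle fibres were measured in the same muscle arrays. The mean level of 9 adipocyte markers ranged from 7.57 to 7.80 in B6 muscle on low fat and from 7.04 to 7.27 on high fat, and from 7.13 to 7.83 and 7.38 to 7.82 in 129S6. Of the 9, 6 had a negative and 3 a positive diet difference in B6, with a median of -0.18, and the fat droplet gene Cidec (-1.34 ± 0.40, adjusted p = 0.0297) and the insulin-responsive glucose transporter gene Slc2a4, which muscle itself expresses (-2.03 ± 0.44, adjusted p = 0.0118), fell with diet in B6. The mean of 8 skeletal muscle markers ranged from 12.21 to 12.51 in B6 on low fat and from 11.34 to 12.17 on high fat. All 8 diet differences were negative, and the fast myosin gene Myh4 alone passed (-0.90 ± 0.29, adjusted p = 0.0382). The array of 129S6 low-fat replicate 9, with the lowest Retn of its group (6.27), also had the lowest skeletal muscle markers (10.72). The mean of 4 brown adipocyte markers in muscle ranged from 4.93 to 5.04 in B6 on low fat and from 4.88 to 5.33 on high fat. In 129S6 muscle it ranged from 5.59 to 6.90 on low fat and from 5.64 to 6.83 on high fat. The part of fat attached to muscle in the differences of Retn and Adipoq was not tested.

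The remaining adipokines showed no called difference in muscle. Lep 98443_at read 8.40, 8.68, 8.54 and 8.62 in 129S6 muscle on low fat and 9.29, 8.81, 9.12 and 9.39 on high fat, without overlap (0.59 ± 0.13, unadjusted p = 0.000443, adjusted p = 0.991). Its B6 arrays ranged from 8.87 to 8.99 on low fat and from 8.80 to 9.23 on high fat (0.10 ± 0.14, adjusted p = 0.584). The other Lep probe set ranged from 8.80 to 9.49 over all muscle arrays, Agt from 7.17 to 7.88 and Serpina12 from 4.74 to 5.78. Of the 6 adipokine probe sets, 2 passed for diet in B6 muscle (26% of all) and 1 for the difference between the diet responses (2.93%). None passed for strain on low fat (0.231%) or on high fat (28.3%), and for diet in 129S6 muscle 0 of all 10833 passed in limma (0%), with 205 at an unadjusted p under 0.05.

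Averaged over the 4 groups of strain and diet, Lep 98443_at, Adipoq and Retn were brightest in fat, then muscle, then liver. Agt and Serpina12 were on that average brightest in liver. No tissue shares a run of array numbers with another, so tissue and run cannot be told apart in these comparisons. Lep 98443_at in fat stood above the other tissues, by 4.10 ± 0.07 over liver and 3.56 ± 0.07 over muscle (adjusted p = 1.56e-35 and 2.47e-32). Adipoq was 7.16 ± 0.11 above liver and 2.71 ± 0.11 above muscle (adjusted p = 8.08e-37 and 1.17e-22), and Retn 4.33 ± 0.13 and 3.44 ± 0.13 (adjusted p = 1.83e-27 and 3.36e-23). Agt was brighter in liver than in fat, by 1.95 ± 0.11 (fat minus liver -1.95, adjusted p = 6.7e-18), and brighter in fat than in muscle by 1.20 ± 0.11 (adjusted p = 1.88e-11). Serpina12 was on average brightest in liver, with fat minus liver at -2.30 ± 0.11 (adjusted p = 3.76e-20) and fat minus muscle at -0.46 ± 0.12 (adjusted p = 0.000565). By group, Serpina12 was highest in B6 liver on low fat (9.13). Its 129S6 high-fat liver group (5.13) lay below B6 high-fat muscle (5.38) without overlap and overlapped 129S6 high-fat muscle (5.02). All 6 probe sets passed between fat and liver (55.5% of all probe sets passed) and between fat and muscle (70.8%), and 5 of 6 between liver and muscle (66.5%), all but Lep 98444_g_at. In the order of the 12 groups, the fat groups of Lep 98443_at ran from 129S6 high-fat (13.16) and B6 high-fat (13.12), which overlapped, to B6 low-fat (12.46) and 129S6 low-fat (11.22), each apart from the next, and every fat array lay above every muscle and liver array. For Agt the lowest liver group (10.45) overlapped the highest fat group, 129S6 on low fat (10.10). The remaining fat groups had means of 8.93, 8.06 and 7.91, above the means of the muscle groups (7.54 to 7.58). Arrays of both high-fat groups in fat (7.05 to 8.50 in B6 and 7.73 to 8.17 in 129S6) overlapped the range of the muscle arrays (7.17 to 7.88). For Retn the fat groups ran from 129S6 low-fat (11.76) through B6 low-fat (10.91) and B6 high-fat (10.42) to 129S6 high-fat (9.52), the last 3 each overlapping its neighbour.

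**Figure D5:**
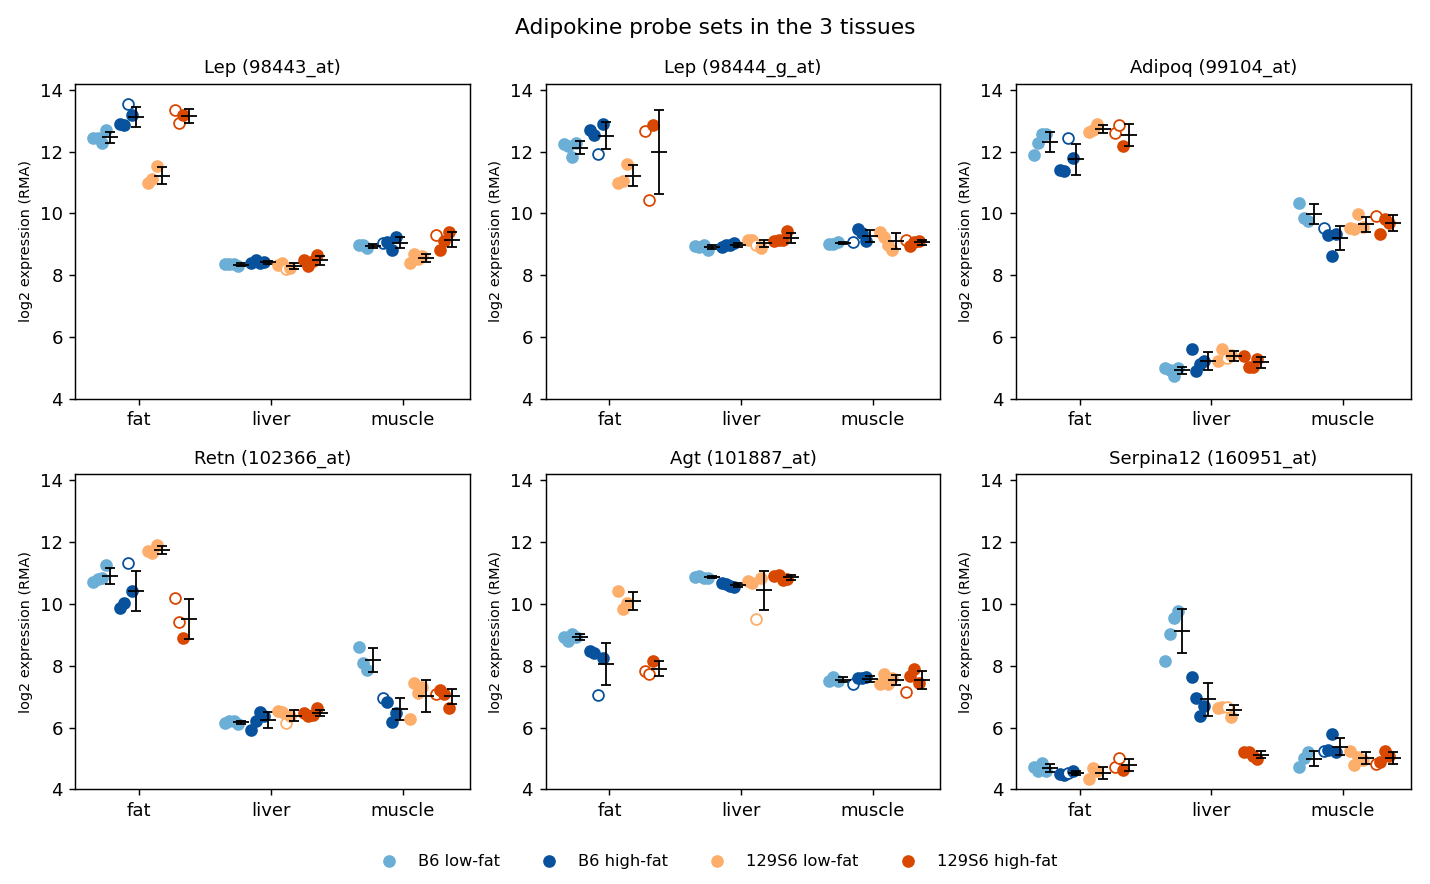
Level of each adipokine probe set (vertical axis, log2 intensity) in the 14 fat, 16 liver and 15 muscle arrays, 1 point per array coloured by strain and diet, open where the Gapdh 3' signal exceeded the 5' signal by more than 3, and black bars for the group mean ± SD. On average over the groups, Lep, Adipoq and Retn are brightest in fat, and Agt and Serpina12 in liver. Serpina12 in 129S6 liver on high fat (4.99 to 5.22) overlaps its muscle arrays. Levels of different probe sets are not comparable.

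Genes around these hormones were followed in fat, where 0% to 0.849% of all probe sets passed in a comparison. At that share a short list with no call is near the background. The lists were chosen with earlier results of these data known, so a list with 1 call is given as a description only. Of 11 measured genes of leptin signalling from a list of 12, including the receptor Lepr and the feedback inhibitor Socs3, none passed in any of the 5 fat comparisons in limma. Lepr differed by diet by -0.14 ± 0.19 in B6 (adjusted p = 0.708) and by 0.17 ± 0.22 in 129S6 (adjusted p = 0.747). Of 7 measured genes of adiponectin receptors and signalling from a list of 10, the receptor gene Adipor2 alone passed, lower in B6 than in 129S6 on low fat (-1.27 ± 0.17, adjusted p = 0.00253). Of 9 measured genes of the angiotensin system from a list of 14, none passed in fat, and the converting enzyme gene Ace differed by diet by -0.41 ± 0.14 in B6 (adjusted p = 0.265) and -0.32 ± 0.16 in 129S6 (adjusted p = 0.399). Of 8 measured genes of the alternative complement pathway from a list of 11, only Cd59a, an inhibitor of the membrane attack complex, passed, higher in B6 on low fat (1.40 ± 0.29, adjusted p = 0.0429).

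Among 23 measured genes of other proteins linked to adipose secretion, from a list of 26, 1 passed for diet in B6 fat (0.185% of all probe sets did), 2 for diet in 129S6 (0.572%) and 2 for strain on low fat (0.849%). The list was chosen with earlier results of these data known, so these counts are given as a description only. Nnat, an imprinted gene that codes for a small membrane protein of the endoplasmic reticulum, made the call in B6 and 1 of the 2 in 129S6. Nnat fell with diet by -3.03 ± 0.49 in B6 (adjusted p = 0.0255) and -3.76 ± 0.56 in 129S6 (adjusted p = 0.0105). Ccl2, the gene of a chemokine that attracts monocytes, rose with diet in 129S6 (2.61 ± 0.40, adjusted p = 0.0112) and was higher in B6 than in 129S6 on low fat (3.10 ± 0.37, adjusted p = 0.00133). Saa3, an acute-phase gene, was also higher in B6 on low fat (1.59 ± 0.34, adjusted p = 0.0473). Of 17 measured regulators of adipogenesis from a list of 20, Hif1a, the oxygen-sensing transcription factor gene, rose with diet in 129S6 by 1 of its probe sets (1.33 ± 0.26, adjusted p = 0.0411), and its other probe set gave 1.30 (adjusted p = 0.0642). The median diet difference of the adipogenic regulators was -0.08 in B6 and -0.17 in 129S6, beside -0.03 and 0.01 over all genes.

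In the other tissues the calls of these lists are read against a larger background. For diet in B6 liver, where 16.2% of all probe sets passed, 3 of 7 genes of adiponectin receptors and signalling fell, namely Adipor2 (-0.45 ± 0.14, adjusted p = 0.0366), the AMP-activated kinase subunit gene Prkab1 (-0.37 ± 0.08, adjusted p = 0.00504) and Clu, the gene of clusterin (-0.34 ± 0.11, adjusted p = 0.0468). In the complement list 1 of 8 rose, and none of the leptin and angiotensin lists passed. Adipor2 was higher in B6 than in 129S6 liver on low fat (0.94 ± 0.14, adjusted p = 0.000362), where 12% of all passed. For diet in B6 muscle 26% of all probe sets passed, and 81 probe sets did with the array SD as a covariate. There 2 of 11 leptin signalling genes rose, 1 of 7 adiponectin genes fell, 1 of 9 angiotensin genes rose and 1 fell, and 1 of 8 complement genes rose. They were Irs1, an adaptor of insulin signalling (0.83 ± 0.26), the transcription factor gene Stat5b (0.49 ± 0.15), the adiponectin receptor gene Adipor1 (-0.66 ± 0.16), the angiotensin receptor gene Agtr2 (0.49 ± 0.15), the lysosomal protease gene Ctsd (-1.65 ± 0.42) and Cfi, a complement inhibitor (0.81 ± 0.21), with adjusted p from 0.0154 to 0.035. No gene of the leptin, adiponectin, angiotensin or complement lists passed for diet in 129S6 liver or muscle in limma.

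The genes whose pattern over the 14 fat arrays was most like that of each adipokine were found by Pearson's r, as a description over arrays that share strain, diet and run. For Lep 98443_at they were Snrnp25, a spliceosome component (r = 0.96), the tropomyosin gene Tpm4 (0.95) and the metallothionein gene Mt2 (0.95). For Agt they were Bcat2, the mitochondrial branched-chain aminotransferase gene (r = 0.95), Slc2a4 (0.95) and Klhl21 (0.94). For Retn they were Hsd11b1, whose enzyme regenerates active glucocorticoid (r = 0.90), Cyp2e1 (0.89) and the cell cycle inhibitor gene Cdkn2c (0.85). For Adipoq they were the carbonic anhydrase gene Car3 (r = 0.88), the amine oxidase gene Aoc3 (0.88) and Thrsp, a lipogenic gene (0.87). For Serpina12, which was dim in fat, they were Hapln1 (r = 0.89), Grm8 (0.88) and Pbdc1 (0.88).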

How the data were processed

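RNA of 45 arrays was measured with 1 colour on an Affymetrix mouse array. The deposited values are log2 intensities of 12488 probe sets, made by the authors with RMA per the submitters' processing notes. The array distributions were close but not equal (medians 6.07 to 6.24, SD 1.57 to 1.98). Of the probe sets, 66 were controls, 1193 had no gene symbol, 396 several and 10833 a single one, and only these were tested. Symbols came from the platform annotation, updated through Entrez IDs (10817 of 10833 matched). The RMA version was not given in the sources used here. Values ran from 2.26 to 14.26, and the number of arrays limits the precision.

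For each tissue, limma 3.58.1 (R 4.3.3) was run on its 4 group means, with two-sided moderated tests and Benjamini-Hochberg adjustment over all 10833 probe sets. Tissues were compared in 1 fit of 12 groups. The members and lists were chosen with earlier results of these data known. Genes named are the members, the 3 probe sets of highest r with each, and list genes past the threshold, at most 5 a list and comparison; Lepr and Ace, Socs3, and some names left out, depart from that rule. For a list gene the brightest probe set was used. Alternatives were the brightest probe set of each gene, leaving out the dimmest part (1 in 3), quantile normalization, only the groups compared, an intensity trend, the Gapdh 3' to 5' signal as a covariate, the array run, leaving out each array and a replicate block. Runs come from array numbers in the sample names. Promoters are RefSeq's on GRCm38.p6, and all 5 genes matched. The fit was tested on simulated data with 200 changed probe sets. Plots were made in Python 3.11.15 by matplotlib 3.10.9.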

Additional observations from a re-analysis of the deposited data

Results flagged for a closer look

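Among 54 groups of 4 arrays, over the 6 adipokine probe sets, 7 held an array farther from the others than Dixon's 95% critical value, where chance flags about 1 in 20. In fat this was Agt in B6 high-fat replicate 7 (7.05, nearest array 8.26), which also had a large Gapdh 3' excess. In liver these were Agt in 129S6 low-fat replicate 11 (9.51, nearest 10.67), also with a Gapdh 3' excess, Lep 98444_g_at in 129S6 high-fat replicate 10 (9.44, nearest 9.13) and Serpina12 in 129S6 low-fat replicate 12 (6.34, nearest 6.62). In muscle these were Adipoq in 129S6 low-fat replicate 11 (10.00, nearest 9.56), Agt in B6 high-fat replicate 5 (7.43, nearest 7.62) and Serpina12 in B6 high-fat replicate 7 (5.78, nearest 5.28). The diet response of Retn in muscle differed between the strains by -1.56 ± 0.37 (limma adjusted p = 0.0431), and by -1.64 without the 2 muscle arrays with a Gapdh 3' excess above 3 (adjusted p = 0.069).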

How the results depend on the processing

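No result of the 6 adipokine probe sets that passed a test changed direction under any alternative. Apart from leaving out single arrays, the alternatives brought 16 fat, 11 liver and 4 muscle results of these probe sets (1 of the 4 between liver and muscle) past the threshold and took 7, 1 and 5 below it. Some alternatives used fewer arrays or tested fewer probe sets, and the cause of a change was not tested. With 3 or 4 pools a group, a difference that did not pass was not shown to be absent.

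Over all arrays limma called 20, 62, 92, 47 and 0 probe sets in fat for diet in B6, diet in 129S6, strain on low fat, strain on high fat and the difference between the diet responses. In liver these counts were 1760, 12, 1301, 459 and 494. In muscle they were 2817, 0, 25, 3067 and 317.

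With only the groups compared, the fat counts became 2, 157, 794 and 5 in that order, and on low fat the strain difference passed for Lep 98444_g_at (0.90, adjusted p = 0.0108), Retn (-0.85, adjusted p = 0.00616) and Agt (-1.17, adjusted p = 0.000938). In liver 4 were called for diet in 129S6, among them Serpina12 (-1.44, adjusted p = 0.00079), 541 and 1012 for strain on low and high fat, and in muscle 6 for strain on low fat.

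With the Gapdh 3' to 5' signal as a covariate, fat gave 34 for diet in 129S6, 286 and 167 for strain on low and high fat, and 3 for the difference between responses. Adipoq then passed for diet in B6 (-0.88), Agt for strain on low fat (-1.20), and Retn for strain on low fat (-0.82) and high fat (1.27) and between responses (2.09). Liver gave 819 for strain on high fat and 1166 between responses, and muscle 42 for strain on low fat and 1636 between responses.

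Leaving out arrays with a Gapdh 3' excess above 3 was chosen after seeing the data and gave 214, 146, 691, 133 and 5 calls in fat, where 1 array of 129S6 on high fat was left and its spread is taken from the other groups. Adipoq (-0.79) and Retn (-0.79) passed for diet in B6 and Lep 98444_g_at for diet in 129S6 (1.64). Lep 98444_g_at (0.90), Retn (-0.85) and Agt (-1.17) passed for strain on low fat, Retn for strain on high fat (1.20) and between responses (2.05). Liver gave 2342 and 862 for strain on low and high fat and 1000 between responses, and muscle 2036 for strain on high fat and 0 between responses.

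With the array run as a block the fat counts for diet and strain were 10, 11, 13 and 4. Retn (-2.26) and Agt (-2.03) for diet in 129S6 no longer passed, nor did Serpina12 for strain on high fat in liver (1.94), where 197 were called. For diet in 129S6 fat this block is the same as leaving out 129S6 low-fat replicate 9. For strain on low fat in fat it rests on that replicate alone, and Lep 98443_at was at 1.46. Within the run of 129S6 fat arrays, with 5 arrays, 0 probe sets passed for diet in limma, and Lep 98443_at was at 1.82, Retn at -2.26 and Agt at -2.03. Within the other fat run, with 1 array of 129S6, 4 passed for strain on low fat and Lep 98443_at did not (1.46). Within the liver run of 129S6 arrays of both diets Serpina12 passed (-1.52).

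For diet in 129S6 liver, the brightest probe set of each gene gave 19 calls with Serpina12 among them (-1.44, adjusted p = 0.0486), as did quantile normalization within liver (19 calls, -1.48, adjusted p = 0.0328), which gave 318 between responses. The array SD as a covariate in muscle, chosen after seeing the data, gave 81 for diet in B6, 67 and 147 for strain on low and high fat, and 2 between responses.

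Leaving out each array in turn, fat counts ran from 1 to 49, 11 to 1074, 28 to 284, 27 to 1002 and 0 to 3 in the order above. Liver counts ran from 913 to 2583, 3 to 24, 654 to 2342, 269 to 862 and 260 to 1000. Muscle counts ran from 225 to 4626 for diet in B6, 10 to 42 and 1499 to 4692 for strain, and 0 to 956 between responses. In fat, diet in 129S6 ran from 0.32 to 1.54 for Lep 98444_g_at, -2.59 to -1.94 for Retn and -2.32 to -2.03 for Agt. Strain on low fat ran from 1.13 to 1.40 for Lep 98443_at and -1.29 to -1.01 for Agt, strain on high fat from -1.02 to -0.63 for Adipoq, and the difference between responses from 1.16 to 1.65 for Agt. Serpina12 ran from -1.52 to -1.40 for diet in 129S6 liver.

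Replicate numbers were shared only across tissues, and the deviations of 12 same-numbered pairs correlated between -0.40 and 0.28 (median -0.063). A replicate block in the comparison of tissues gave 5949, 7605 and 7185 calls for fat against liver, fat against muscle and liver against muscle, left Serpina12 at -2.30 between fat and liver, and changed no call of an adipokine. No paired analysis was possible within a tissue because its groups share no replicate numbers.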
